A study of Mus musculus with 31 samples.

Results

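Expression of 9 genes that act in antigen receptor rearrangement and in the first steps of B cell development was followed across 9 sorted populations of mouse bone marrow. They were Dntt, Rag1, Rag2, Igll1, Vpreb1, Il7r, Cd79a, Cd79b and Ms4a1, taken by symbol from the probe annotation of the array, and they make up 9 of the 19938 genes tested. Each was read by 1 probe. The study profiled 31 whole-transcript arrays of wild-type C57BL/6 mice, with 20000 double-sorted cells per sample, to set multipotent progenitor subsets beside stem cells and myeloid progeny. Every stem cell and multipotent progenitor population lacked lineage antigens and carried cKit and Sca1. Within that gate, long-term stem cells (LT-HSC, n = 4) were Flk2-, CD48- and CD150+, and short-term stem cells (ST-HSC, n = 3) were Flk2-, CD48- and CD150-. MPP2 (n = 3) were Flk2-, CD48+ and CD150+, MPP3 (n = 3) were Flk2-, CD48+ and CD150-, and MPP4 (n = 5) were Flk2+. Common myeloid progenitors (CMP, n = 3) and granulocyte-macrophage progenitors (GMP, n = 4) were lineage-negative, cKit+ and CD34+, with the Fc gamma receptor absent on CMP and present on GMP. The PreGr (pre-granulocyte) samples, 3 in number, and the 3 Gr (granulocyte) samples were gated only by Mac1 together with intermediate or high Gr1, and the labels name no lineage exclusion for them. The lineage antibodies used on the progenitors included B220 and CD3. Replicates are stated to be biological. Age, sex and the number of mice behind a sample are not given in the sources used here.

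Lymphocytes assemble their antigen receptor genes by cutting and joining gene segments. Rag1 and Rag2 together form the recombinase that makes the cut, and Dntt encodes terminal transferase, which adds untemplated nucleotides where segments join. In pro-B and pre-B cells, Igll1 (lambda 5) and Vpreb1 build the surrogate light chain that pairs with a newly made heavy chain, and Cd79a and Cd79b carry the signal of that receptor into the cell. Il7r encodes the interleukin 7 receptor alpha chain, which early lymphoid cells need for survival and growth. Ms4a1 encodes CD20, a surface protein of later B cells.

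Levels are log2 values brought to a common scale by quantile normalization, and a difference of 1 is a factor of 2. The deposited arrays fell into 5 sets whose medians ran from 6.19 to 7.83, and these sets, which the labels do not name, partly coincide with the populations. Every test was therefore made in a limma model without and with the set as a block, and the words rose and fell are kept for results where both passed a Benjamini-Hochberg adjusted p of 0.05 in the same direction. Contrasts against LT-HSC with the set block rest on LT-HSC 4, the only LT-HSC array that shares a set with other populations. With the same rule, 108 member results were tested in 12 comparisons, of which 22 passed both fits, 18 as higher and 4 as lower. A further 14 passed only without the set block and 2 only with it. Across genes, the correlation between replicate arrays was 0.961 or higher, up to 0.995. Sorting genes followed the gates in part. Flt3 (Flk2) was highest in MPP4 (11.27 ± 0.54, SD, n = 5), and Slamf1 (CD150) was higher in LT-HSC (8.71 ± 0.61, n = 4) and MPP2 (6.83 ± 0.41, n = 3) than in ST-HSC (5.05 ± 0.34, n = 3) and MPP3 (5.60 ± 0.22, n = 3). Yet Flt3 was also higher in the Flk2- gates ST-HSC (9.96) and MPP3 (9.72) than in LT-HSC (8.21) and MPP2 (8.18), and Slamf1 was at 7.25 in CMP. As a guide to faint signal, the 95th percentile of 1027 olfactory receptor genes, which blood cells are not known to use, lay between 6.82 and 7.38 on the 31 arrays. Since probes differ in their own background, this guide describes a level and tests nothing.

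The reference places Rag1 and Rag2 side by side on chromosome 2 and Igll1 and Vpreb1 side by side on chromosome 16, with 0 protein-coding genes between the members of either pair. Dntt and Ms4a1 lie on chromosome 19, Il7r on 15, Cd79a on 7 and Cd79b on 11. The 250 bases before the transcription start are shown for Rag1, Igll1 and Vpreb1, whose levels departed together on the same arrays, and for Dntt, which was high on all MPP3, MPP4 and CMP arrays. They were taken from RefSeq on the GRCm38.p6 build, which holds windows for 7 of the 9 genes, and are written 5′ to 3′ on the strand of the gene. Capitals mark CAGGTG or its reverse complement CACCTG, an E-box bound by E2A proteins, and CCCNNGGG, the core of the EBF1 motif, which is its own reverse complement. The Rag1 window is chr2:101649533-101649782 on the minus strand, Igll1 is chr16:16863986-16864235 on the minus strand, Vpreb1 is chr16:16869256-16869505 on the minus strand and Dntt is chr19:41029025-41029274 on the plus strand.
Rag1: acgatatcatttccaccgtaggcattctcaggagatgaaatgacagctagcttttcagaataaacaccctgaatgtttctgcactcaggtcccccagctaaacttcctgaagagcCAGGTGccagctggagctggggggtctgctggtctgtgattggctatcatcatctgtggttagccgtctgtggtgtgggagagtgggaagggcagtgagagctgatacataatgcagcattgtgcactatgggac
Igll1: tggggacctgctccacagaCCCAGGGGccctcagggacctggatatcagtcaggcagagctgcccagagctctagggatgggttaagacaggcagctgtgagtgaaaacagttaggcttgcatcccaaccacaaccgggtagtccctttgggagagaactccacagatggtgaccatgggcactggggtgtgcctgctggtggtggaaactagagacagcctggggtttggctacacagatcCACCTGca
Vpreb1: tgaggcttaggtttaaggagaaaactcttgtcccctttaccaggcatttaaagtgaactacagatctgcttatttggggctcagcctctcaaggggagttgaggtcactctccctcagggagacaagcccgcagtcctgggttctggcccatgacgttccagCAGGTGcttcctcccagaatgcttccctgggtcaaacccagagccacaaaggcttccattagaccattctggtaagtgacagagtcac
Dntt: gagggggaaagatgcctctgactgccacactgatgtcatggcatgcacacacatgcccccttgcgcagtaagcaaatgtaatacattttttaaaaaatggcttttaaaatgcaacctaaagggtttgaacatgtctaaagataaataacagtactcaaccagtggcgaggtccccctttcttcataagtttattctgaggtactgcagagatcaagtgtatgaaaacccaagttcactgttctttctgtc

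The E-box letters stood in the windows of 4 of the 7 genes, Rag1, Igll1, Vpreb1 and Cd79a, and in 17.2% of 32851 promoter windows of the same length. They began 135 bases before the start of Rag1, 88 before that of Vpreb1 and 8 before that of Igll1. The EBF1 core was in the Igll1 window alone among the 7, and in 11.8% of all windows. TATAAA, the TATA box, was in 0 of the 7 and in 12.4% of all. In the Dntt window none of the 3 letter strings occurred. These are matches of letters and say nothing of which factors bind. Vpreb1 has a near-identical paralog, Vpreb2, and their windows were 98.1% identical over 156 bases. The probe annotation does not settle whether the Vpreb1 probe also reads Vpreb2 transcripts, so the Vpreb1 level is uncertain to that extent. The probe of Vpreb2 itself stayed between 7.36 and 8.66 on all arrays while that of Vpreb1 ran from 6.64 to 12.16.

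**Figure D1:**
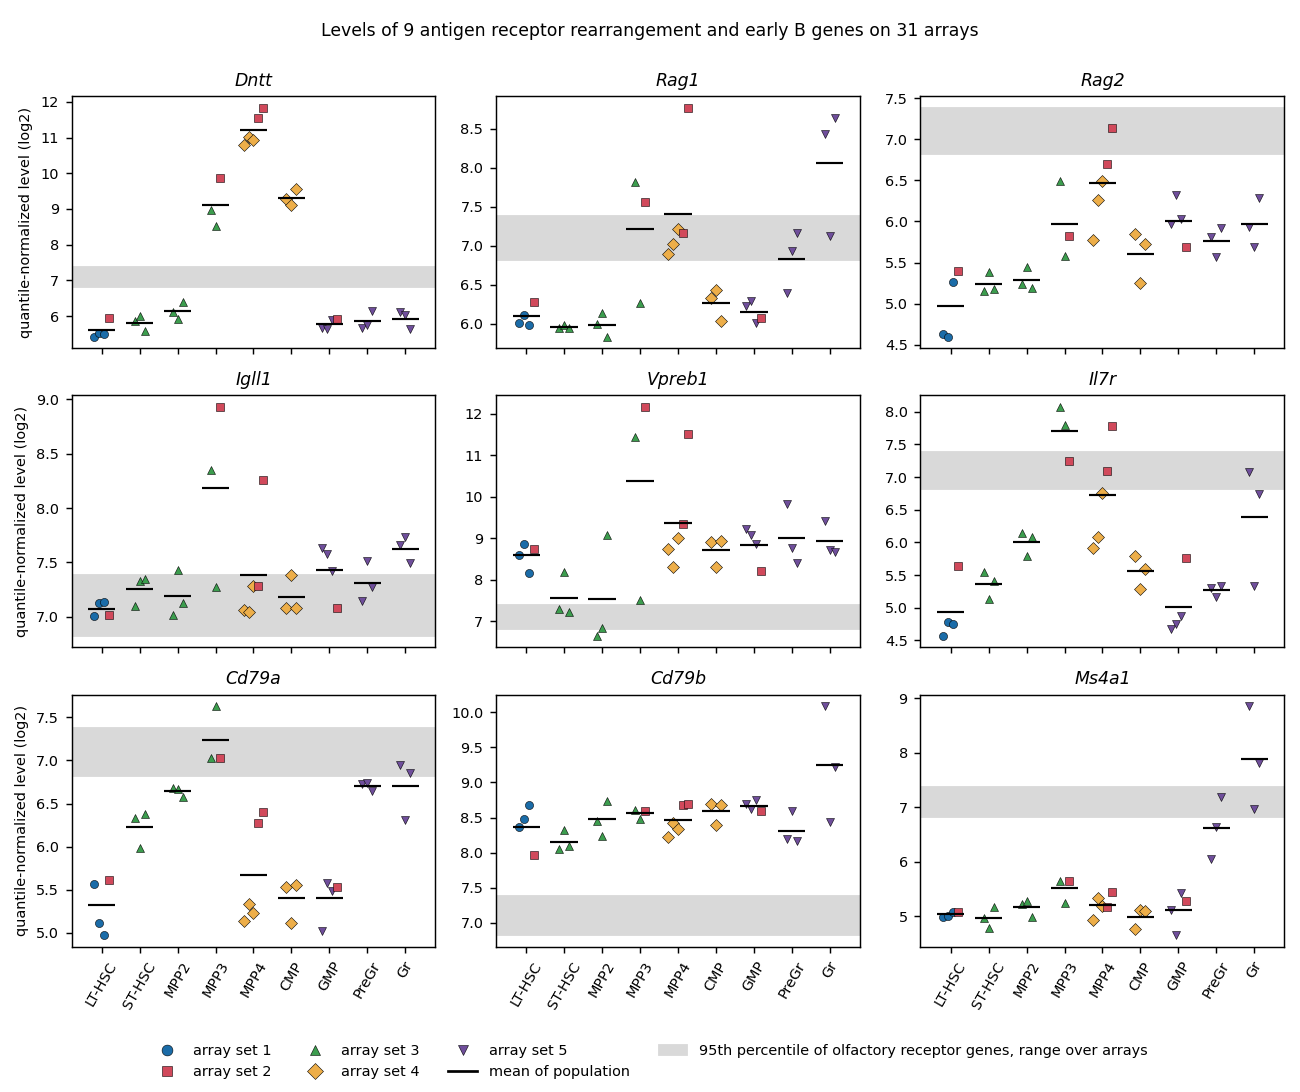
Quantile-normalized log2 level of each gene on each of the 31 arrays, by population, with the mean as a bar, the array set as colour and symbol, and the range of the olfactory receptor guide in grey. Dntt stands high in MPP3, MPP4 and CMP only, Vpreb1 and Igll1 split the MPP3 arrays, and Ms4a1 and Cd79b are highest in Gr.

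Dntt had the widest range of the 9 genes. It was at 10.79, 11.03, 10.92, 11.56 and 11.84 in MPP4 1 to 5. The MPP3 arrays gave 8.96, 8.53 and 9.88, and the CMP arrays 9.28, 9.10 and 9.56. Every MPP4 array was above every MPP3 and CMP array, and all 11 arrays of these 3 populations were above the olfactory guide. Every array of the other populations lay between 5.41 and 6.38, below that guide. LT-HSC gave 5.41, 5.53, 5.50 and 5.94, so the stem cells did not overlap with MPP3, MPP4 or CMP. Of all genes, 11.4% were higher without overlap in MPP3 and 6.47% in MPP4 against LT-HSC. Without overlap, 3.99% were higher in MPP4 than in MPP3, and 6.92% lower in CMP than in MPP4.

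Against LT-HSC, Dntt rose by 5.63 ± 0.21 (SE) in MPP4 (limma, adjusted p = 1.2e-16, n = 5 and 4), and by 5.75 with the set block. In MPP3 it rose by 3.53 ± 0.24 (limma, adjusted p = 2.34e-10, n = 3 and 4). With the set block the rise was 3.94, a value that comes from MPP3 3 and LT-HSC 4. The difference between these progenitors was itself tested: MPP4 exceeded MPP3 by 2.11 ± 0.23 (limma, adjusted p = 2.33e-06) and by 1.82 with the set block. The latter value comes from MPP4 4, MPP4 5 and the single array MPP3 3, which share a set. In ST-HSC (5.81 ± 0.21, SD, n = 3) and MPP2 (6.13 ± 0.24, SD, n = 3) the level was close to that of LT-HSC (5.60 ± 0.24, SD, n = 4), and MPP2 against LT-HSC passed only with the set block (1.33, adjusted p = 0.0195, against 0.54 and 0.0834 without it). That call was lost when MPP3 2 was left out (1.11).

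CMP, a population defined as myeloid, kept a high level. Dntt fell by 1.91 ± 0.23 from MPP4 to CMP, which is 3.77-fold (limma, adjusted p = 5.09e-06), and by 3.54 ± 0.24 from CMP to GMP (limma, adjusted p = 2.99e-11). No fold is given where a group lay below the olfactory guide on all or most arrays, as Dntt did in LT-HSC and GMP, because the size of such a difference depends on the background of the probe. CMP and MPP3 were neighbours in the order of levels and did not differ beyond their spread (0.19 ± 0.26, adjusted p = 0.672). The GMP, PreGr and Gr arrays all lay between 5.63 and 6.14. Since bulk samples were measured, fewer cells with a transcript and less of it per cell cannot be told apart, here or below. Leaving out any 1 array ended none of the 8 Dntt calls without the set block, nor with it in the fits that could be made. For MPP3 against LT-HSC the set-block value of 3.94 could not move, since fits without MPP3 3 or LT-HSC 4 could not be made. In a fit of only the array set that holds these 2 arrays, Dntt did not pass in MPP3 against LT-HSC (3.94) or in MPP4 against MPP3 (1.82). It did pass there in MPP4 against LT-HSC (5.75).

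The recombinase genes were fainter. Rag1 was at 6.90, 7.03, 7.22, 7.17 and 8.77 in MPP4 1 to 5 and at 7.82, 6.27 and 7.57 in MPP3 1 to 3. All LT-HSC, ST-HSC, MPP2, CMP and GMP arrays lay lower than the MPP4 arrays, between 5.83 and 6.44. MPP3 2 thus sat among the stem cells and MPP4 5 stood apart from the other MPP4 arrays. MPP4 exceeded LT-HSC by 1.32 ± 0.31 without the set block (limma, adjusted p = 0.00303) and by 1.69 ± 0.55 with it (limma, adjusted p = 0.101), so that the call was not made in both fits. MPP3 against LT-HSC (1.12 ± 0.35) and MPP4 against MPP2 (1.42 ± 0.34) had the same outcome, as had CMP against MPP4 (-1.14 ± 0.34). Within the 1 set that holds both MPP4 and CMP, 3 arrays of each, the difference of CMP from MPP4 was -0.77 ± 0.13 (limma within the set, adjusted p = 0.00779).

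Rag2 was above the olfactory guide on 1 of 31 arrays, MPP4 5 (7.13). The other MPP4 arrays gave 5.77, 6.26, 6.50 and 6.70, and LT-HSC gave 4.63, 4.60, 5.26 and 5.39. The groups did not overlap, where 6.47% of all genes were higher in MPP4 without overlap. Rag2 rose in MPP4 against LT-HSC by 1.50 ± 0.22 (limma, adjusted p = 1.65e-05), and against MPP2 by 1.18 ± 0.24 (limma, adjusted p = 0.00128). With the set block the differences were 1.52 and 1.84, and these calls were lost there without MPP4 5 (1.31 and 1.62), the latter also without MPP3 1 (1.38). In a fit of only the array set that holds MPP4 4, MPP4 5 and LT-HSC 4, the difference from LT-HSC (1.52) did not pass. Between GMP, Gr, MPP3, PreGr and CMP, next to each other in the order of Rag2 levels, no neighbouring difference passed in either fit.

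In Gr, Rag1 was at 8.43, 7.12 and 8.65, and in PreGr at 6.40, 6.94 and 7.17. The mean of Gr was the highest of the 9 populations but its difference from MPP4 passed in neither fit (0.65 ± 0.34, adjusted p = 0.12, and -0.0039 with the set block), and MPP4 5 lay above every Gr array. Rag1 rose from PreGr to Gr by 1.23 ± 0.38 (limma, adjusted p = 0.0194) in both fits, which give the same value because all 6 arrays share a set. Gr 2 overlapped with PreGr, and the call was lost when Gr 1 (1.05), Gr 3 (0.94) or PreGr 1 (1.02) was left out. Rag2 did not follow: Gr was at 5.97 ± 0.30 (SD, n = 3) and PreGr at 5.76 ± 0.18 (SD, n = 3), a difference of 0.20 ± 0.27.

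**Figure D2:**
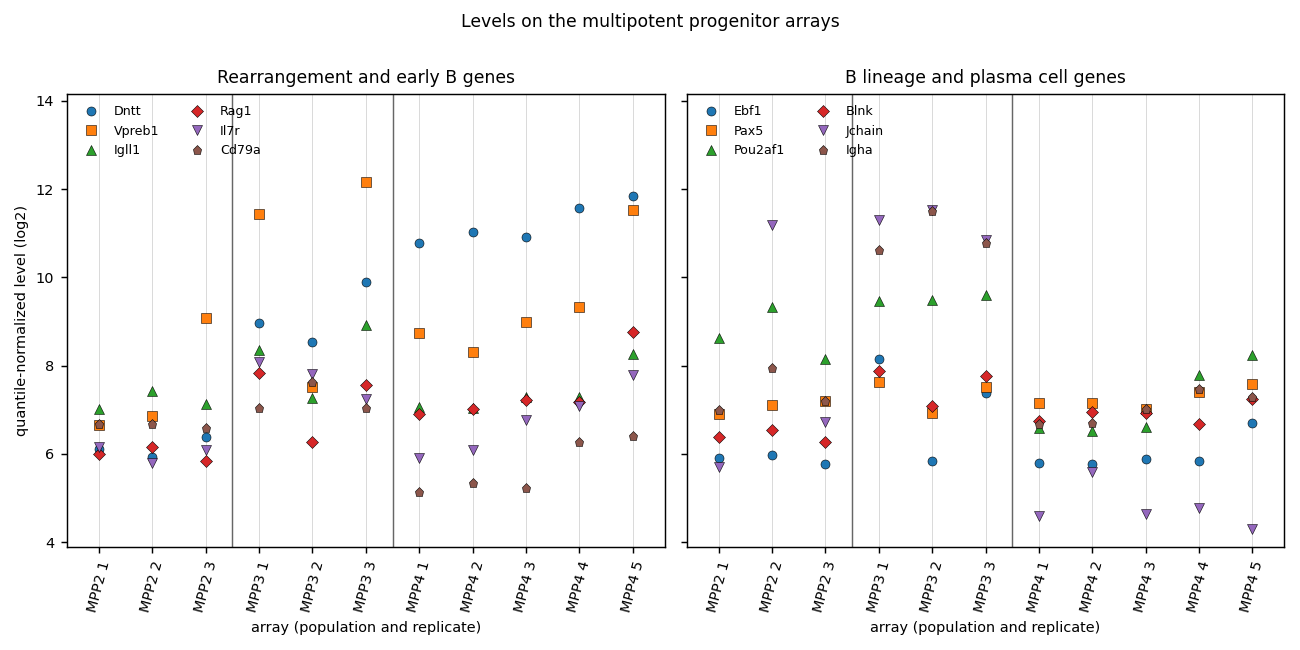
Quantile-normalized log2 levels on the 11 multipotent progenitor arrays, for 6 of the followed genes (left) and 6 B lineage and plasma cell genes (right). Vpreb1, Igll1, Rag1 and Ebf1 are high on MPP3 1, MPP3 3 and MPP4 5 and lower on MPP3 2, while Jchain and Igha are high on all 3 MPP3 arrays.

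The surrogate light chain genes split the replicates of 1 population. Vpreb1 was at 11.43, 7.52 and 12.16 in MPP3 1 to 3, between 8.30 and 9.34 in MPP4 1 to 4, and at 11.52 in MPP4 5. In MPP2 it was at 6.64, 6.85 and 9.09. Both MPP3 1 and MPP3 3, and MPP4 5, were above every array of the other populations, where the highest was PreGr 1 at 9.83. MPP3 2 lay below every LT-HSC array (8.17 to 8.85), so the groups overlapped.

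Because of this spread within MPP3 (SD 2.50, n = 3), the means of 10.37 in MPP3 and 9.38 in MPP4 could not be told from that of LT-HSC, 8.59 ± 0.30 (SD, n = 4). The differences were 1.78 ± 0.74 and 0.79 ± 0.66, neither passing with all arrays. Without MPP3 2, Vpreb1 in MPP3 exceeded LT-HSC by 3.20 in the limma fit without the set block (adjusted p = 0.000955). With all arrays, only MPP3 against ST-HSC passed, without the set block (2.81 ± 0.79, limma, adjusted p = 0.0482), and it did not pass with it (1.91, adjusted p = 0.279). In the order of Vpreb1 levels no difference between neighbouring populations passed in either fit.

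Igll1 moved with Vpreb1 from array to array. MPP3 1 to 3 were at 8.35, 7.27 and 8.93, and MPP4 1 to 5 at 7.06, 7.04, 7.28, 7.29 and 8.26. The other 23 arrays lay between 7.01 and 7.74, within about the range of the olfactory guide or slightly above it. Igll1 rose in MPP3 against LT-HSC (7.01 to 7.14) by 1.11 ± 0.26, 2.16-fold (limma, adjusted p = 0.00251), and by 1.91 with the set block, where the value comes from MPP3 3 and LT-HSC 4. In a limma fit of only the array set that holds both of these arrays, it did not pass (adjusted p = 0.418). Without MPP3 3 the difference was 0.74 and still passed without the block. After removing each population's mean, Igll1 and Vpreb1 correlated at r = 0.77 over the 31 arrays, Rag1 and Igll1 at 0.69, Dntt and Vpreb1 at 0.67, Dntt and Igll1 at 0.60, and Rag1 and Vpreb1 at 0.59. Igll1 and Il7r gave 0.05, and Igll1 and Cd79a 0.02. These values describe arrays that share sets and the same normalization.

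Ebf1, a transcription factor that directs the B cell fate, was high on the same arrays. It was at 8.16, 5.84 and 7.38 in MPP3 1 to 3 and at 6.69 in MPP4 5, against 5.76 to 5.88 in MPP4 1 to 4. Blnk, an adaptor of pre-B cell receptor signalling, gave 7.88, 7.08 and 7.75 in MPP3, so that all 3 exceeded every LT-HSC array (5.92 to 6.10). Plasma cell genes had another pattern. Jchain, the joining chain of secreted antibodies, was at 11.31, 11.53 and 10.85 in MPP3, with MPP3 2 the highest, and at 4.68 to 5.33 in LT-HSC.

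Il7r was highest in MPP3, at 8.07, 7.80 and 7.24, and here MPP3 2 did not stand apart. The MPP4 arrays spread from 5.91 and 6.08 through 6.76 and 7.09 to 7.78 in MPP4 5. LT-HSC were at 4.57, 4.79, 4.75 and 5.63, below both. Il7r rose in MPP4 against LT-HSC by 1.79 ± 0.32 (limma, adjusted p = 0.000263), and by 1.80 with the set block, where leaving out MPP4 5 lost the call (1.46). Fitted on only the array set of MPP4 4, MPP4 5 and LT-HSC 4, Il7r did not pass in this comparison (1.80). It rose in MPP3 against ST-HSC by 2.35 ± 0.39 (limma, adjusted p = 0.000356), and by 2.58 with the set block. MPP3 exceeded LT-HSC by 2.77 ± 0.37 without the set block, while with it the difference of 1.61 just missed (adjusted p = 0.0543).

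From MPP3 to MPP2 (5.79 to 6.15) Il7r fell by 1.70 ± 0.39 (limma, adjusted p = 0.0284), with no overlap. Of all genes, 5.06% were lower in MPP2 without overlap. Il7r fell by 1.93 in the fit with the set block, where leaving out MPP3 1 lost the call (-1.79). Without the block this call was lost when MPP2 1 (-1.77), MPP2 2 (-1.59), MPP3 1 (-1.51) or MPP3 2 (-1.65) was left out. MPP4 against MPP3 passed in neither fit (-0.98 ± 0.35 without the block and 0.19 with it). CMP against MPP4 passed without the block (-1.17 ± 0.35, limma, adjusted p = 0.0499) and not with it (-0.70, adjusted p = 0.158). MPP4 against MPP2 passed only with the block (2.12, adjusted p = 0.0417, beside 0.72 without it), and that call was lost in 9 of 30 fits that left out 1 array, MPP4 5 (1.78) among them. Interleukin 7 itself (Il7) went the other way: it fell against LT-HSC in MPP2 (-1.58), MPP3 (-1.42) and MPP4 (-1.18). Among these arrays Il7 was above the olfactory guide only on LT-HSC 1 to 3 (7.24 to 7.47), which form an array set of their own. LT-HSC 4 (6.56) and the MPP2, MPP3 and MPP4 arrays (5.44 to 6.36) lay below the guide.

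Cd79a, the alpha chain of the signalling pair, was faint throughout and above the olfactory guide on 2 of 31 arrays. MPP3 were at 7.03, 7.63 and 7.03, LT-HSC at 5.56, 5.12, 4.97 and 5.62. It rose in MPP3 against LT-HSC by 1.91 ± 0.25 (limma, adjusted p = 4.28e-06), and by 1.41 with the set block, again MPP3 3 against LT-HSC 4, which did not pass in a fit of only their array set (limma, adjusted p = 0.375). Against ST-HSC (5.98 to 6.37) it rose by 1.00 ± 0.26 (limma, adjusted p = 0.0312). Without the set block this call was lost when any of the 3 ST-HSC arrays, MPP3 2 or MPP3 3 was left out (0.80 to 1.10). With the block the rise was 1.10, a call lost only without MPP3 2 (0.80). In MPP4 the difference from LT-HSC passed in neither fit (0.36 ± 0.22 without the set block and 0.72 with it). It did pass after subtraction of array medians (0.58, limma, adjusted p = 0.0395). The MPP4 arrays were at 5.14, 5.33, 5.23, 6.28 and 6.40, where the higher pair, MPP4 4 and MPP4 5, are those of another array set. The difference of MPP4 from MPP3, -1.56 ± 0.24 without the block, became -0.69 with it (adjusted p = 0.224).

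**Figure D3:**
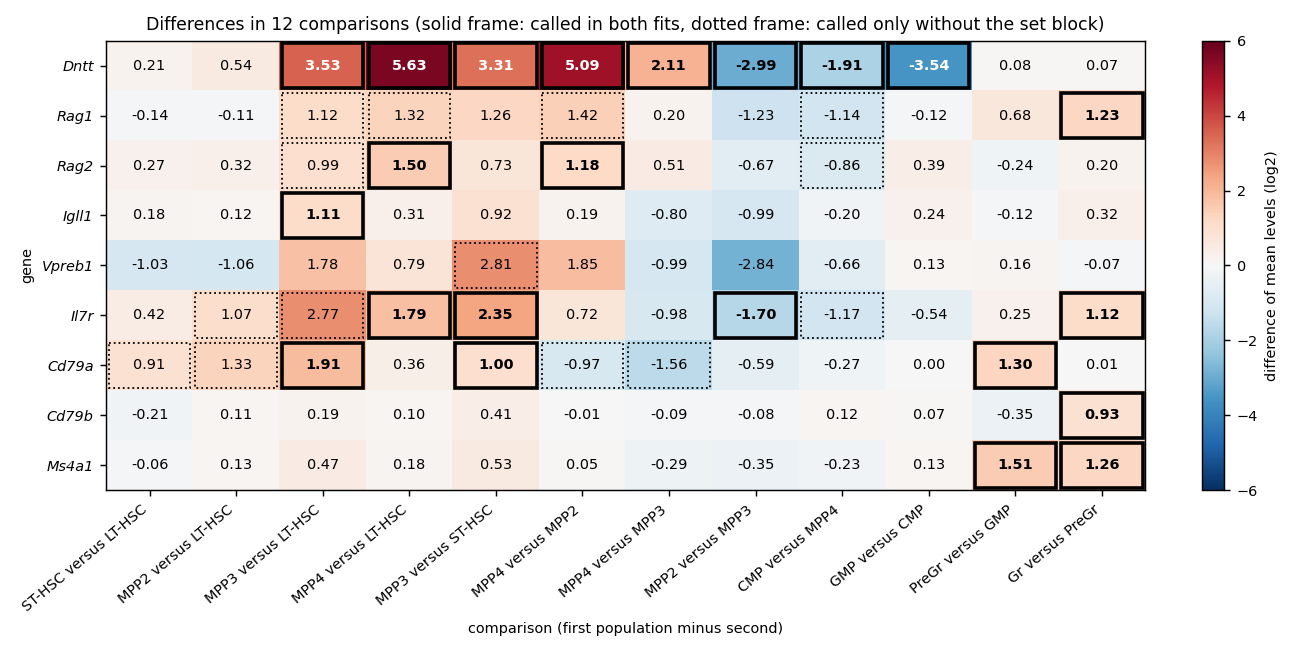
Difference of mean log2 levels for each gene in each of the 12 comparisons, from the limma fit without the set block. Solid frames mark the 22 results called in both fits, and dotted frames the 14 called only without the block. Dntt holds 8 of the 22.

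Cd79b, the beta chain, was above the olfactory guide on all 31 arrays and nearly level from LT-HSC to PreGr, with population means between 8.16 and 8.66. Only Gr stood out, at 10.09, 8.43 and 9.22, over PreGr at 8.19, 8.59 and 8.16. It rose from PreGr to Gr by 0.93 ± 0.24, 1.91-fold (limma, adjusted p = 0.00519). The groups overlapped through Gr 2. Without Gr 1 the difference was 0.51 and no longer passed in the fit without the set block. In the fit with the block, leaving out any 1 array did not end the call.

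Ms4a1 was at 8.86, 6.98 and 7.82 in Gr and at 6.06, 6.64 and 7.19 in PreGr. All 25 other arrays lay between 4.66 and 5.64. It rose from GMP to PreGr by 1.51 ± 0.27 (limma, adjusted p = 0.000137), and from PreGr to Gr by 1.26 ± 0.29 (limma, adjusted p = 0.00178). Without Gr 1 the latter was 0.77 and still passed. PreGr and GMP did not overlap, where 12.6% of all genes were higher in PreGr without overlap. Gr 2 was below PreGr 3, so PreGr and Gr overlapped. In a limma fit of their array set alone, the differences of Ms4a1 and Cd79b between PreGr and Gr just missed the threshold (adjusted p = 0.0537 and 0.0549).

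Along the granulocyte path Cd79a rose as well, from GMP (5.02, 5.57, 5.48 and 5.53) to PreGr (6.72, 6.73 and 6.64) by 1.30 ± 0.25 (limma, adjusted p = 0.000309), with no overlap. In this comparison 12.6% of all genes were higher without overlap. Il7r rose from PreGr (5.16 to 5.34) to Gr (7.08, 5.33 and 6.73) by 1.12 ± 0.39 (limma, adjusted p = 0.0451). Gr 2 was at the level of PreGr, and without the block that call was lost when any 1 of 15 arrays was left out, among them Gr 1 (0.77) and Gr 3 (0.94). Gr 1 and Gr 3 were thus the higher arrays, and Gr 2 the lowest, for Rag1, Il7r, Cd79a, Cd79b and Ms4a1 alike.

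Other B cell genes and genes of other blood cells also changed between GMP, PreGr and Gr. Ebf1 was at 8.35, 6.94 and 8.36 in Gr 1 to 3 and at 6.06 to 6.92 in PreGr, and rose by 1.41 ± 0.37 (limma, adjusted p = 0.00583). Fcer2a (CD23), a low-affinity IgE receptor of B cells, gave 7.20, 6.31 and 6.86 in Gr. Cd3d, a chain of the T cell receptor complex, rose by 3.39 from GMP to PreGr and by a further 2.80 to Gr, while Gzma (-2.92), Nkg7 (-2.26) and Klrb1c (-1.02), genes of cytotoxic and NK cells, fell from PreGr to Gr. Among 13 measured T and NK cell markers, 7 rose and 0 fell from GMP to PreGr, and 2 rose and 4 fell from PreGr to Gr. Of all genes, 6.63% rose and 8.98% fell from GMP to PreGr, and 8.12% rose and 11.2% fell from PreGr to Gr. The mean level of these markers was 6.78 to 6.97 on the GMP arrays, 7.73 to 7.80 on PreGr and 7.33 to 7.73 on Gr. Among 10 measured plasma cell markers, 5 rose and 0 fell from GMP to PreGr, and from PreGr to Gr 0 of 10 passed both limma fits, 0 being called without the block and 2 with it (Xbp1, -0.37, and Irf4, -0.44), and 2 being at an unadjusted p under 0.05 in each fit. Their mean level was 6.88 to 6.97 on GMP, 7.74 to 8.20 on PreGr and 7.62 to 7.99 on Gr. Of 11 neutrophil genes, 9 rose from GMP to PreGr. What part other cells in the gate had in the levels of Ms4a1, Cd79b, Rag1 and Il7r was not tested.

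**Figure D4:**
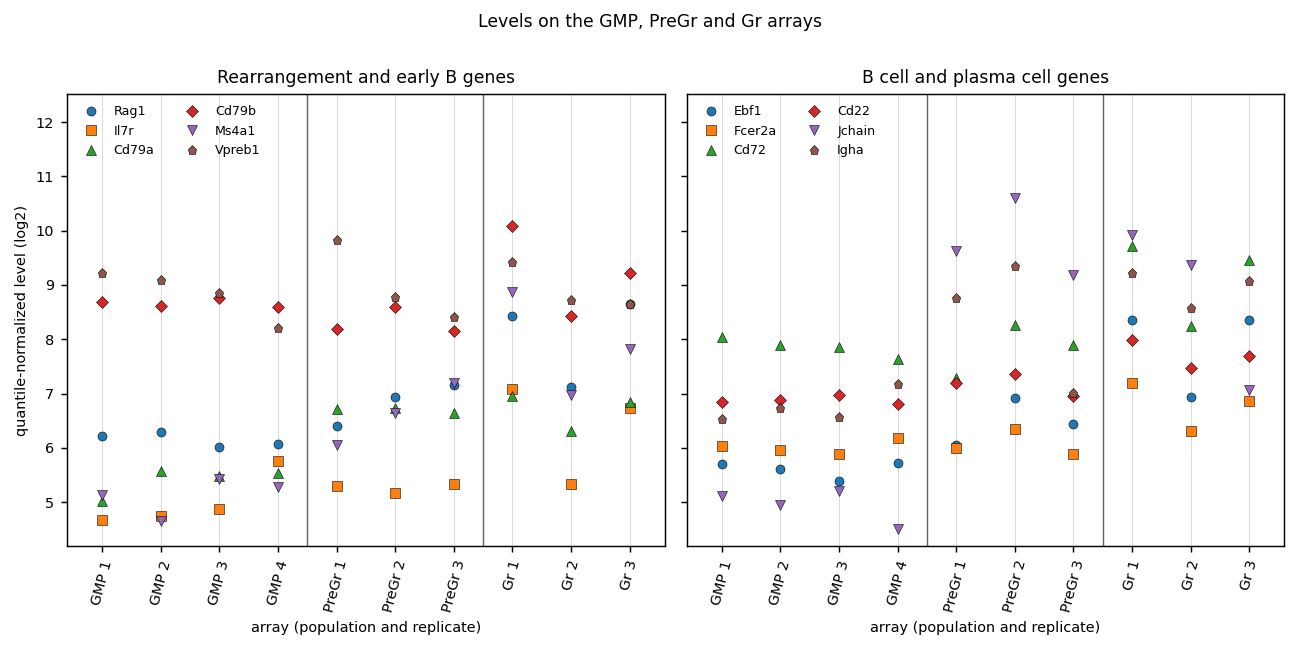
Quantile-normalized log2 levels on the GMP, PreGr and Gr arrays for 6 of the followed genes (left) and 6 B cell and plasma cell genes (right). Gr 1 and Gr 3 exceed Gr 2 for Rag1, Il7r, Cd79b, Ms4a1 and Ebf1, whereas Jchain is lowest of the 3 on Gr 3.

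Counted by comparison, the members stood against the following shares of all genes called in both fits. In MPP3 against LT-HSC, 3 of 9 rose (Dntt, Igll1 and Cd79a), where 2.27% of 19938 genes rose. In MPP4 against LT-HSC, 3 of 9 rose (Dntt, Rag2 and Il7r), where 0.873% did. In MPP3 against ST-HSC, 3 of 9 rose (Dntt, Il7r and Cd79a), where 1.58% did, and in MPP4 against MPP2, 2 of 9 (Dntt and Rag2), where 0.772% did. These comparisons share LT-HSC, MPP3 or MPP4 arrays and are not independent of each other.

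Between MPP4 and MPP3, Dntt alone rose, where 0.155% of all genes did. From MPP3 to MPP2, 2 of 9 fell (Dntt and Il7r), where 0.502% did. Dntt alone fell from MPP4 to CMP, where 1.46% of genes fell, and from CMP to GMP, where 0.517% fell. In PreGr against GMP, 2 of 9 rose (Cd79a and Ms4a1), where 6.63% of genes did, and in Gr against PreGr, 4 of 9 (Rag1, Il7r, Cd79b and Ms4a1), where 8.12% did. For ST-HSC against LT-HSC, 0 of 9 passed both limma fits, where 0.537% of genes did, with 1 called without the block (Cd79a) and 1 and 2 at an unadjusted p under 0.05 without and with it. For MPP2 against LT-HSC it was 0 of 9, where 4.45% of genes passed, with 2 called without the block (Il7r and Cd79a) and 3 and 2 at an unadjusted p under 0.05.

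Without the set block the shares of all genes called, in either direction, were much larger for contrasts between array sets: 22.8% in ST-HSC, 36.1% in MPP2, 27.5% in MPP3 and 24.7% in MPP4 against LT-HSC, where 1, 2, 6 and 4 of the 9 genes were called. They were 3.15% in MPP3 against ST-HSC (4 of 9), 14.8% in MPP4 against MPP2 (4 of 9), 1.56% in MPP4 against MPP3 (2 of 9) and 0.963% in MPP2 against MPP3 (2 of 9). They were 5.1% in CMP against MPP4 (4 of 9), 11.7% in GMP against CMP (1 of 9), 16.6% in PreGr against GMP (2 of 9) and 19.3% in Gr against PreGr (4 of 9).

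The median difference over the 9 genes was 1.12 in MPP3 against LT-HSC, where the median over all genes was -0.01, and 0.79 in MPP4 against LT-HSC, where it was -0.000265. From MPP4 to CMP the 9 genes had a median of -0.66 beside 0.01 for all, and from PreGr to Gr one of 0.32 beside 0.02.

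Other genes of the reaction that Rag1 and Rag2 begin were counted next. The list of 13 measured genes held end-joining genes, which seal the cut ends, and Hmgb1 and Hmgb2, cofactors of Rag cutting. Of these 13, 0 passed both limma fits in MPP4 against LT-HSC and 1 had an unadjusted p under 0.05 in each fit. The median of their differences was -0.01. From GMP to PreGr 4 of 13 fell, where 8.98% of all genes fell in both fits, and 1 rose, where 6.63% did. Atm, a kinase that senses DNA breaks, fell by 1.32 ± 0.16 (limma, adjusted p = 5.44e-07), Xrcc6 (Ku70), which binds broken ends, by 1.09, Trp53bp1, which protects broken ends, by 0.81 and Prkdc, the end-joining kinase, by 0.74, while Hmgb2 rose by 0.43. Atm and Prkdc fell again from PreGr to Gr, by 1.15 and 0.97.

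Of 10 measured genes of the interleukin 7 pathway, 2 fell and 0 rose in MPP4 against LT-HSC, Il7 and Cish, an inhibitor that cytokine signalling induces (-0.78 ± 0.10, limma, adjusted p = 5.75e-06). In this comparison 1.11% of all genes fell in both fits. In Gr against PreGr 3 rose and 0 fell: Jak1, a kinase of the receptor, by 0.92, Stat5b, the transcription factor it activates, by 0.59, and Cish by 0.41. Of 12 measured pre-B cell receptor signalling genes, 1 rose in MPP3 against LT-HSC, Blnk (1.55 ± 0.18, limma, adjusted p = 1.34e-06), and in Gr against PreGr 5 rose and 1 fell. The risers were Cd72 (1.32), Pik3ap1 (0.75), Syk (0.73), Blnk (0.66) and Cd22 (0.54), while Fyn fell by 0.96.

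Among 14 B lineage transcription factors, 2 rose in MPP3 against LT-HSC: Pou2af1, a B cell coactivator, by 2.88 ± 0.31 (limma, adjusted p = 3.82e-07), and Lef1 by 0.65. Pou2af1 also rose in MPP2, by 2.07, and from MPP3 to MPP4 it fell by 2.36. In MPP4 against LT-HSC only Ikzf1 (Ikaros), which opens lymphoid development, rose, by 0.62 ± 0.10 (limma, adjusted p = 7.24e-05). In Gr against PreGr, Ebf1, Ikzf3 (1.14) and Spib (0.65) rose and Tcf4 fell by 0.55. Of 12 measured B cell surface genes, Cd37 rose in both MPP3 (1.04) and MPP4 (0.76) against LT-HSC, and 5 rose in Gr against PreGr, with Fcer2a (0.72), Cd37 (0.61), Cr2 (0.47) and Cd24a (0.41) beside Cd22, while Cd93, a marker of immature B and myeloid cells, fell by 0.85.

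Some markers of plasma, T and NK cells also rose in MPP3 against LT-HSC, where Dntt, Igll1 and Cd79a rose. Of 10 measured plasma cell markers 4 rose and 0 fell against LT-HSC: Jchain by 6.18 ± 0.73 (limma, adjusted p = 1.25e-06), Igha by 4.14 ± 0.33 (limma, adjusted p = 1.82e-09), Ighm by 1.96 and Derl3 by 0.63. Their mean level was 8.34 to 8.80 on the MPP3 arrays, 7.07 to 8.04 on MPP2 and 6.79 to 6.99 on MPP4, beside 6.85 to 6.98 on LT-HSC. The high MPP2 array was MPP2 2, where Jchain was at 11.19. Among the MPP3 arrays the plasma cell marker mean was highest on MPP3 2 (8.80), where Igll1 (7.27) and Dntt (8.53) were lowest and Cd79a (7.63) was highest. Of the 13 T and NK cell markers, Thy1 (1.35) and Il2rb (0.84) rose in MPP3 against LT-HSC. Of 7 markers of plasmacytoid dendritic cells, 5 of erythroid cells and 11 of neutrophils, 1 each rose in MPP3 against LT-HSC and 0 fell, and in MPP4 1, 0 and 1 rose. The part of other cell types in the MPP3 levels of Igll1, Il7r and Cd79a was not tested. In MPP4, where Dntt was highest, 0 of 10 plasma cell markers passed both limma fits against LT-HSC, with 3 and 1 at an unadjusted p under 0.05 and 2 called without the block.

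**Figure D5:**
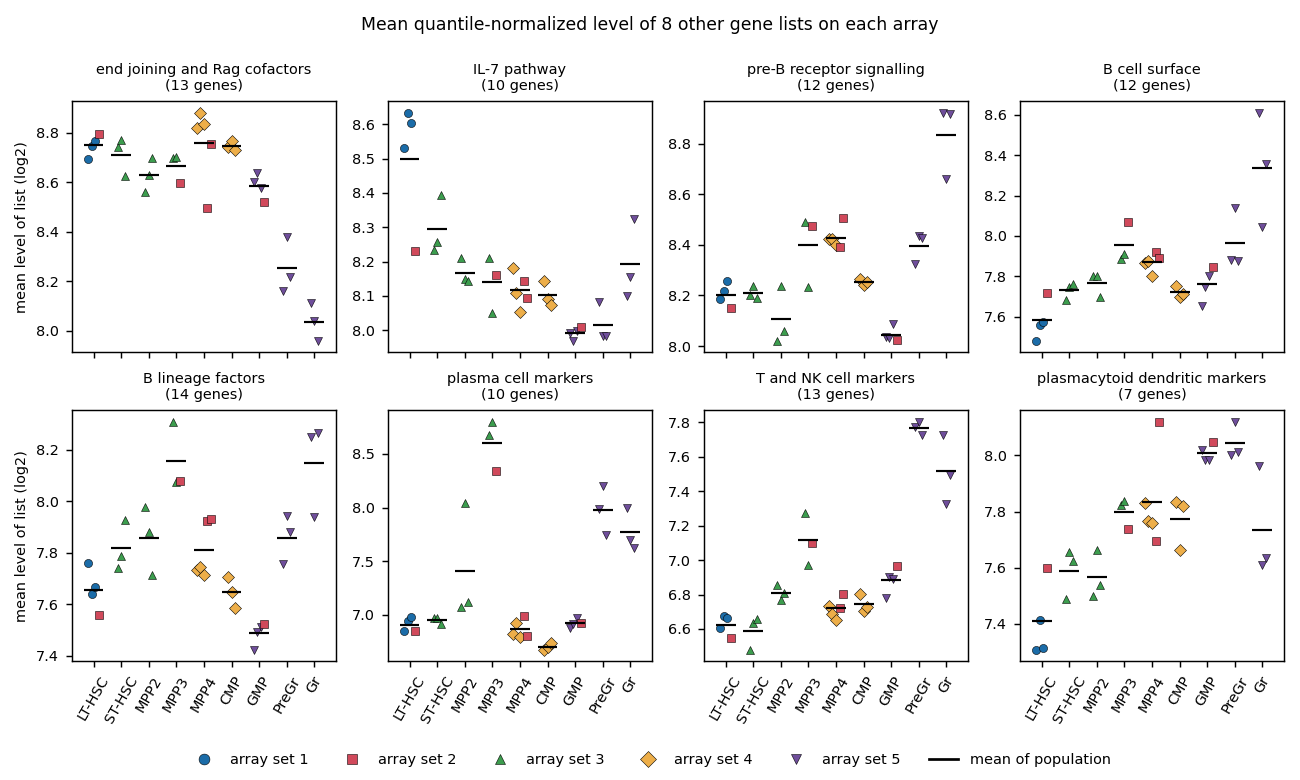
Mean quantile-normalized log2 level of 8 other gene lists on each array, by population, with array sets as in the plot of levels. Plasma cell markers are highest on the 3 MPP3 arrays (8.34 to 8.80), and B cell surface genes have their highest population mean in Gr (arrays from 8.04 to 8.61).

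Each gene's profile over the 9 population means was set beside those of 1671 genes whose means spanned over 2. H2-Ob, a class II antigen presentation gene, was most like Dntt (r = 0.94), followed by Flt3 (r = 0.81), the gene of the sort antigen Flk2. Rag1 was most like Cmah (0.92) and Ebf1 (0.86), and Rag2 most like Slc9a9 (0.91) and Satb1 (0.87). The gene most like both Igll1 (0.92) and Vpreb1 (0.78) was 1 and the same immunoglobulin kappa variable segment, followed for both by Trgv1, a T cell receptor variable segment (0.92 and 0.74), and for Igll1 by Igha (0.90). Il7r was most like Rasgrp3 (0.86), Cd79a most like Pou2af1 (0.91) and Jchain (0.91), Cd79b most like Capns2 (0.94), and Ms4a1 most like Ankrd22 (0.99) and Rasgrp4 (0.99). These are descriptions over 9 means, and the likeness of genes read from few high populations rests on those populations.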

How the data were processed

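Sorted bone marrow cells were profiled on 31 arrays, with RNA amplified and biotin-labelled before hybridisation. The deposited values are log2 intensities made by the authors with RMA (version not stated), per the submitters' processing notes. Of 35557 probes, 21789 name 1 gene in the platform annotation, 1621 several and 12147 none, and 21698 identifiers matched RefSeq. The number of arrays limits the precision.

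Array medians differed between 5 sets of arrays, found by identical deposited values shared between arrays (at least 2). All probes were quantile-normalized, and the brightest probe of each of 19938 genes was tested with limma 3.58.1 in R 4.3.3, with 1 mean per population over all arrays and 22 residual degrees of freedom. A further fit added the set as a block (18 degrees of freedom). P-values were Benjamini-Hochberg adjusted over all genes within each comparison, with 0.05 as the threshold. Both fits were tested on simulated data.

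The genes and all gene lists were chosen with earlier results of these data known. All 9 genes are named in every comparison. From other lists up to 4 genes per comparison with the largest change among those called in both fits are named, and for likeness the 3 genes with the highest Pearson r at most. Hmgb2, Vpreb2, Xbp1 and Irf4 in Gr, the further risers among the signalling and surface genes of Gr, and the genes shown array by array (Ebf1, Blnk, Jchain and Fcer2a) were chosen after their values were seen.

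By replicate number, MPP4 and LT-HSC arrays deviated from their group means together in all 4 pairs (r = 0.126 to 0.271). The labels name no shared animal. In each population replicates 1 to 3 share an array set, and replicate 4 of both lies in another set. These correlations therefore cannot tell a pairing of samples from the array sets. With the replicate number as a block no call of the 9 genes in MPP4 against LT-HSC changed. Replicates are called biological in the labels, but no source used here ties them to separate animals, so p-values measure the spread between these samples. The alternatives were subtraction of array medians, the mean of a gene's probes, all probes, a filter on dim probes, array weights, a replicate block, fits within 1 array set, and leaving out each array. Quantile normalization over genes, and the set-block fit without each array, were added after seeing the data.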

Additional observations from a re-analysis of the deposited data

Results flagged for a closer look

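Of 27 groups of 4 or 5 arrays examined, 3 held an array far from the others, measured as its gap to the nearest array over the range of the group, and chance gives about 1 in 20. Rag1 was at 8.77 in MPP4 5, where the next highest MPP4 array was at 7.22. Igll1 was at 8.26 in the same array, where the next was at 7.29. Cd79a was at 5.02 in GMP 1, where the next lowest GMP array was at 5.48.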

How the results depend on the processing

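Without the set block, the counts of the 9 genes called were 1 in ST-HSC, 2 in MPP2, 6 in MPP3 and 4 in MPP4 against LT-HSC, 4 in MPP3 against ST-HSC, 4 in MPP4 against MPP2, 2 in MPP4 against MPP3, 2 in MPP2 against MPP3, 4 in CMP against MPP4, 1 in GMP against CMP, 2 in PreGr against GMP and 4 in Gr against PreGr. With the array set as a block they became 0 in ST-HSC, 1 in MPP2 and 3 in MPP3 against LT-HSC, 1 in MPP4 against MPP3 and 1 in CMP against MPP4. Of all genes, the set-block fit called 1.47%, 8.16%, 6.65%, 1.16% and 7.23% in the same order, in either direction. Il7r in MPP2 against LT-HSC changed sign with the set block, from 1.07 to -0.32. Among results called without the block or in the alternative, this was the only reversal, set-block fits without 1 array aside. Uncalled results changed sign with the block as well. Vpreb1 in ST-HSC against LT-HSC went from -1.03 to 1.51, and Il7r in the same comparison from 0.42 to -0.97. For the alternatives that follow, the shares of all genes called were not counted. A moved count there cannot be told from a change in calls over all genes. Within 1 array set, with fewer samples, the counts of the 9 genes were 0 in MPP3 and 1 in MPP4 against LT-HSC, 0 in MPP4 against MPP3, 2 in CMP against MPP4 and 2 in Gr against PreGr. With a replicate block they were 2 in ST-HSC against LT-HSC, 4 in MPP4 against MPP3, 5 in MPP2 against MPP3, 1 in CMP against MPP4 and 2 in GMP against CMP. In these 5 comparisons the arrays share only a number (residual correlations from -0.43 to 0.27). Testing all probes gave 2 in MPP3 against ST-HSC, 1 in MPP2 against MPP3 and 2 in CMP against MPP4, and median subtraction gave 2 in MPP3 against ST-HSC and 1 in MPP2 against MPP3. Array weights gave 3 in GMP against CMP and 1 in Gr against PreGr, where Rag1 (0.74), Il7r (0.56) and Cd79b (0.49) no longer passed. Leaving out 1 array gave 0 to 1 in ST-HSC, 1 to 3 in MPP2, 5 to 7 in MPP3 and 4 in MPP4 against LT-HSC, 2 to 6 in MPP3 against ST-HSC, 4 to 5 in MPP4 against MPP2, 2 to 4 in MPP4 against MPP3, 1 to 5 in MPP2 against MPP3, 1 to 4 in CMP against MPP4, 1 in GMP against CMP, 2 in PreGr against GMP and 1 to 4 in Gr against PreGr. The mean of a gene's probes and normalization over genes changed no call among the 108 results. Averaging probes could not change the values of the 9 genes, since each has 1 probe. The filter on dim probes, which 8 of the 9 genes passed (not Rag2), moved no count by over 1.5 times. It kept a gene whose mean was above the olfactory guide in any population. Ms4a1 passed only through Gr, Il7r and Cd79a only through MPP3, Dntt only through MPP3, MPP4 and CMP, and Rag1 only through MPP3, MPP4 and Gr. The counts after this filter are therefore no separate check on these genes. With the set block, 10 fits that leave out LT-HSC 4, MPP3 3 or GMP 4 could not be made, because these arrays alone link their populations across sets. Beyond the changes that follow from fewer arrays or more probes, the cause was not tested. Rag2, Il7r, Cd79a, Ms4a1 outside Gr, and Dntt outside MPP3, MPP4 and CMP were near the olfactory guide or below it, which limits what their differences show. The same limit holds for Il7, which was below the guide on all arrays but LT-HSC 1 to 3.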
